A study of Mus musculus with 8 samples.

Results

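The miR-297, miR-466, miR-467 and miR-669 families were examined in tissues microdissected from the mammary glands of pubertal mice. Members were the mouse miRNAs on the array whose name held one of these 4 family numbers and no asterisk, and 35 of 611 mouse miRNAs met this rule. There were 2 members of the miR-297 family, 14 of miR-466, 7 of miR-467 and 12 of miR-669. The array carried 4 further miRNAs of these families with an asterisk in their name, which marks the arm of a hairpin first annotated as the less abundant one. Those were kept apart.

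There were 3 arrays of terminal end buds (TEBs), 2 of mature ducts and 3 of stroma. The donors of all 3 tissues were 5-week-old female mice that carried a beta actin-GFP reporter, of the FVB/n strain per the study's methods, and no group was treated. TEBs are the bulbous, proliferating tips of the ductal tree that advance through the fat pad in puberty. Mature ducts are the tubes they leave behind, and stroma was taken from distal regions of the gland. The reporter is driven in all cells and does not itself mark the epithelium. The labels do not say whether replicates of a tissue came from separate animals or pools, so p-values measure only the spread between these samples, which may be technical. Pieces of tissue were measured in bulk, so fewer cells of a type and less RNA per cell cannot be told apart.

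miRNAs are short RNAs that guide Argonaute proteins to messenger RNAs, mainly through pairing of the seed, bases 2 to 8 of the miRNA. Most miRNAs of these 4 families lie in one intron of Sfmbt2, which encodes a Polycomb group protein and is imprinted in the mouse placenta. The intron holds a run of repeated hairpins that is found in rodents and not in humans. Members of the cluster are known mainly from placenta, early embryo and embryonic stem cells.

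The host gene was checked against an annotation. RefSeq (assembly GRCm38.p6) placed 72 miRNA genes inside Sfmbt2, of which 71 belonged to these 4 families. An entry was found for 33 of the 35 members. Every annotated locus lay inside Sfmbt2 for 26 of them. For miR-466f-3p and miR-466f-5p, 3 copies lay inside the host gene and 1 copy elsewhere. miR-466i, miR-466j, miR-466k, miR-467f and miR-467g had no copy inside it and are family relatives from other loci, so the name Sfmbt2 cluster does not hold for these 5. miR-466a-3p and miR-466a-5p had no locus under their name. Several members had many near-identical copies, with 12 for miR-669a, 10 for miR-467a and 8 for miR-466b inside the host gene. Copies and near-identical relatives share probe sequence, so a signal cannot be credited to one copy and members are not independent of each other.

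RefSeq mature sequences (GRCm38.p6) were matched for 5 members. All 5 are the members with no copy inside Sfmbt2, so they do not stand for the cluster itself. They are printed 5′ to 3′ with the seed in capitals because miR-467f among them is described further on and the others are its relatives from loci outside the host gene. For miR-466i, the matched entry was the 3p arm.
mmu-miR-466i-3p: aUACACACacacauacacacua
mmu-miR-467f: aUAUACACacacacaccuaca
mmu-miR-467g: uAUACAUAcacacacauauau
mmu-miR-466j: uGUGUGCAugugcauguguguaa
mmu-miR-466k: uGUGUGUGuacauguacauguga
Their positions are chr13:17747552-17747573 on the plus strand for miR-466i-3p, chr11:69635419-69635439 on the minus strand for miR-467f and chr5:34732872-34732892 on the minus strand for miR-467g. miR-466j maps to chr10:60960802-60960824 and miR-466k to chr3:85467396-85467418, both on the plus strand. The first 3 sequences contain 0 G and 7, 6 and 5 CA steps respectively. The last 2 sequences contain 8 and 7 UG steps. The 5 seeds all differ, so none of the 5 shares a seed with another.

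Each miRNA was measured as the scanner software's total signal, which is summed over its probes with background subtracted and can be negative, together with an error and a flag for detection. Signals of different miRNAs depend on their probes, so they are not set against each other as levels. The arrays were alike in detection, with 23.2% to 27.7% of the mouse miRNAs detected and summed signals of 54238.6 to 88828.3 units. All 6 miRNAs listed as epithelial markers were detected in each TEB and duct sample, and none of them in any stroma sample. Of 5 miRNAs listed for fibroblasts and smooth muscle, 4 were detected on every array of all 3 tissues.

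The first question was whether the families could be seen in the gland at all. Only miR-669f was detected, on 3 of 3 TEB arrays, 0 of 2 duct arrays and 0 of 3 stroma arrays. The other 34 members were detected on none of the 8 arrays. Thus 2.86% of the members were detected on at least 1 array, against 35.1% of the other mouse miRNAs (202 of 576). When all samples of some tissue had to detect the miRNA, the shares were 2.86% and 28.8%. All 8 arrays detected 108 mouse miRNAs, with no member among them. None of the 4 asterisk miRNAs of the families was detected either.

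Another large imprinted miRNA cluster, Dlk1-Dio3, was set beside these families. It is expressed from the maternal chromosome and is known from brain, embryo and placenta. Of 59 miRNAs listed for it, 12 (20.3%) were detected on at least 1 array and 7 on all 8. These shares are counts over probes whose miRNAs are processed together, and no test of the difference was made.

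**Figure D1:**
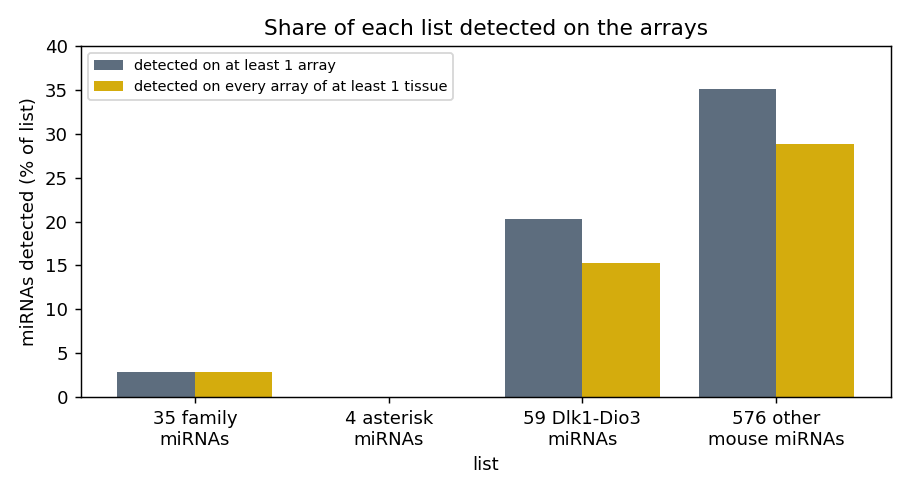
Share of each list of miRNAs (y axis, % of list) that was detected on at least 1 array (dark bars) or in all samples of some tissue (yellow bars). The 35 family miRNAs stand at 2.86% on both measures, the 4 asterisk miRNAs at 0, the 59 Dlk1-Dio3 miRNAs at 20.3% and 15.3%, and the 576 other mouse miRNAs at 35.1% and 28.8%.

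The undetected members gave signals around and below 0. Both miR-297 members, 13 of 14 miR-466 members, 5 of 7 miR-467 members and 9 of 12 miR-669 members were negative on all 8 arrays, which made 29 members in all. Before scaling, miR-297 signals ran from -34.1 to -3.24 units and miR-466 signals from -43.6 to 0.343 units. Signals ran from -41.3 to 9.62 units in the miR-467 family and from -35.1 to 19.5 units in the miR-669 family, with miR-669f at the top. A negative signal is a measurement below the local background and gives no level.

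Members shared this with other undetected miRNAs. Of the 34 undetected members 85.3% were negative on all 8 arrays, against 70.3% of the 374 other undetected mouse miRNAs (263 of 374). The median signal of the undetected members was -4.70, -5.95 and -9.33 units on the 3 TEB arrays, -27.0 and -13.1 on the 2 duct arrays, and -14.7, -16.0 and -8.22 on the 3 stroma arrays. For the other undetected miRNAs the medians were -4.25, -5.63 and -7.40 units in TEBs, -20.7 and -10.2 in ducts, and -12.7, -13.9 and -6.56 in stroma. Both sets of medians were lowest on the first duct array and highest on the first TEB array. The arrays thus took a like order in the members and in undetected miRNAs at large.

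**Figure D2:**
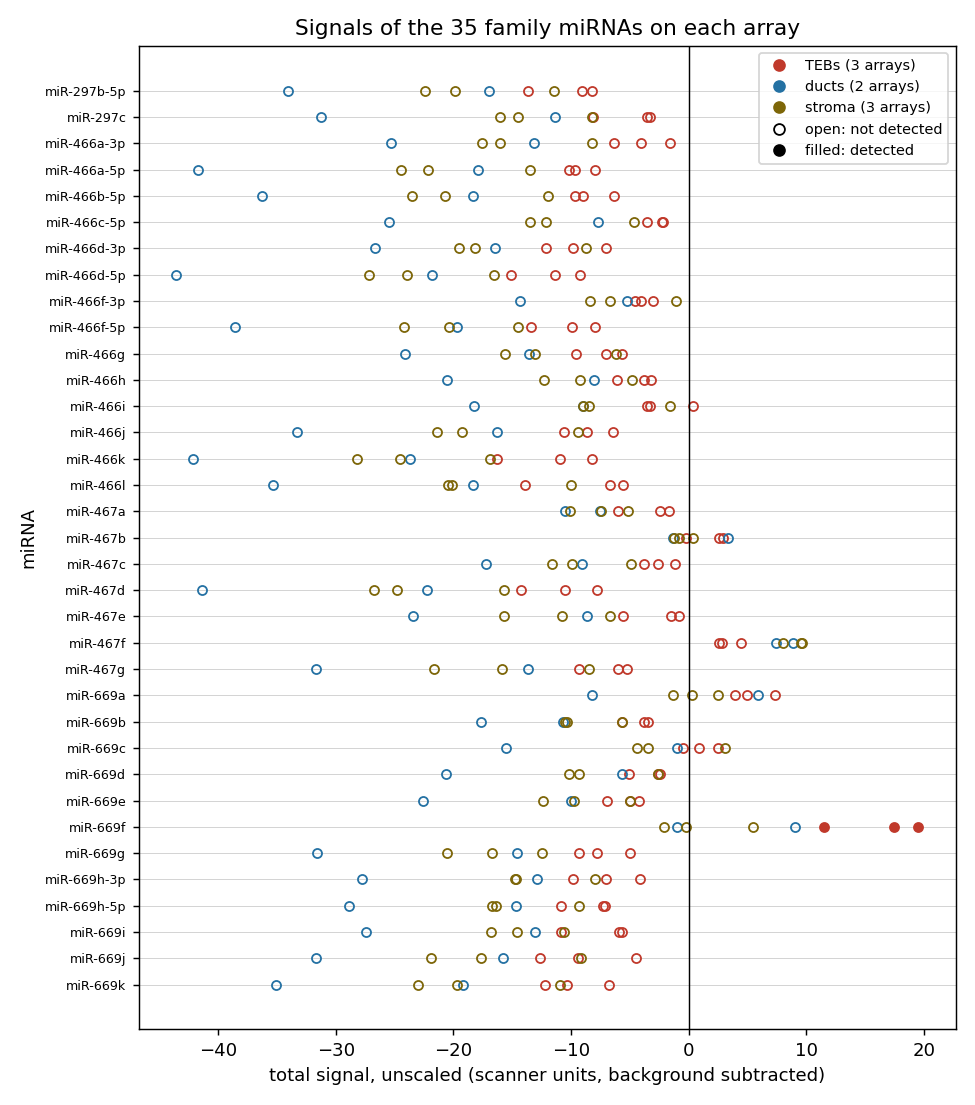
Total signal before scaling (x axis, scanner units, background subtracted) of each of the 35 family miRNAs (y axis) on the 3 TEB, 2 duct and 3 stroma arrays, with filled points for detected and open points for not detected. All filled points belong to miR-669f in TEBs, at 11.5 to 19.5 units, and 29 members lie below 0 on every array.

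miR-669f was the member on which the comparisons turned. Its signal before scaling was 19.5, 17.5 and 11.5 units in the 3 TEB samples. In ducts it was -0.987 and 9.09 units, and in stroma -0.248, -2.10 and 5.44 units. The 3 TEB samples were all above the 5 others, and the groups of ducts and stroma overlapped.

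The TEB signals were weak ones. They were 4.77, 3.63 and 2.21 times their error, so that on the third TEB array the signal stood less than 3 errors above background. The higher duct sample, in which it was not detected, stood 1.45 errors above background, and the highest stroma sample 1.15. The error of miR-669f was 4.09, 4.82 and 5.19 units in TEBs. In ducts this error was 10.4 and 6.28, and in stroma 6.27, 7.02 and 4.75. The part of these errors in its detection was not tested. On the first TEB array 32 of 161 detected mouse miRNAs had a lower signal than miR-669f, on the second 19 of 165 and on the third 5 of 156. On the third array 10 undetected mouse miRNAs had a higher signal. The median detected signal on these arrays was 70.0, 69.2 and 70.4 units.

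After scaling of each array to the upper quartile of the 108 miRNAs detected throughout, the TEB mean of miR-669f was 16.1 ± 3.87 units (SD, n = 3). The duct mean was 3.27 ± 5.68 (SD, n = 2), and the stroma mean was 1.54 ± 5.20 (SD, n = 3). The scaled values were 19.7, 16.5 and 12.0 in TEBs, -0.740 and 7.29 in ducts, and -0.253, -2.52 and 7.41 in stroma. The lowest TEB value was above the highest value of either other tissue.

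**Figure D3:**
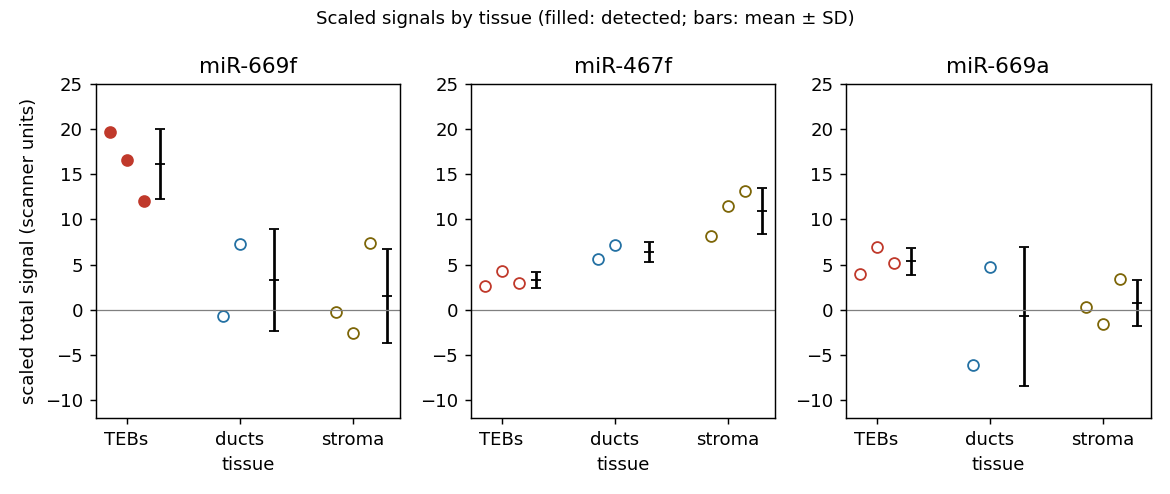
Scaled total signal (y axis, scanner units) of miR-669f, miR-467f and miR-669a in each TEB, duct and stroma sample, with the mean ± SD beside each group and filled points for detected. miR-669f lay at 12.0 to 19.7 in TEBs and at or under 7.41 elsewhere, while undetected miR-467f lay lower in TEBs than in stroma.

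The tissues were compared with limma on log2 signals with a floor at 1 unit, over the 167 miRNAs that all samples of some tissue detected. miR-669f was the single member among them. It entered through TEBs alone, and such a filter favours higher values there, though it does not force them. Neither its being tested nor a limma call higher in TEBs after this filter is independent support for a difference.

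Between TEBs and stroma, miR-669f was called higher in TEBs by limma, with a log2 difference of 3.01 (SE 1.01, adjusted p = 0.0362, n = 3 and 3), higher in 3 of 3 TEB samples than in any stroma sample. That was 1 of 1 tested member. Among all tested miRNAs, 20.4% were called in the same direction and 44.3% in the opposite one. The fold itself depends on the floor. Each stroma value was also set to the array's lowest detected signal, or to its own signal where that was higher. Against this reference the TEB mean was 1.59-fold higher. This is not a firm lower limit, since miRNAs not detected on the stroma arrays reached 21.8, 25.7 and 18.7 units before scaling. An exact two-sided permutation test of this value alone gave p = 0.1, the smallest that 3 against 3 samples allow. The limma call did not hold without any one of the 3 TEB samples or without the first or the second stroma sample, when the adjusted p reached 0.118. It was also lost when replicate numbers were blocked (adjusted p = 0.0591 by limma), without the detection filter (0.145) and with the methods' t-test after adjustment (0.0626), and normexp background correction turned the log2 difference to -0.13 (adjusted p = 0.248).

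Between TEBs and ducts the difference in miR-669f did not pass the limma test, with a log2 difference of 2.54 (SE 1.13, adjusted p = 0.119, n = 3 and 2). No member was called there, where 11.4% of tested miRNAs were higher in TEBs and 13.2% higher in ducts. With the duct values set to a reference in the same way as the stroma values, the TEB mean was 1.85-fold higher. This is not a firm lower limit either. On each duct array an undetected miRNA had a signal before scaling above every TEB signal of miR-669f. The exact two-sided permutation test gave p = 0.2 where 0.1 is the smallest possible.

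Ducts and stroma, in neither of which miR-669f was detected, gave a log2 difference of 0.47 by limma (SE 1.13, adjusted p = 0.825). No member was called, against 9.58% of tested miRNAs higher in ducts and 12% higher in stroma. The exact permutation p was 1. Ducts and stroma did not differ beyond their spread, and neither gives a level of miR-669f, since it was not detected there.

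The split of calls over all tested miRNAs moved with the scaling. When the upper quartile was taken over all 611 mouse miRNAs, 14.4% were called higher in TEBs and 3.59% higher in ducts, and the median log2 difference over all tested miRNAs moved from -0.10 to 0.45. TEBs against stroma then gave 22.8% and 16.8%, and ducts against stroma gave 6.59% and 4.79%. The miR-669f call stood under this scaling, with an adjusted p of 0.00864 by limma for TEBs against stroma.

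The row of the array on the slide was examined as a possible batch. The labels do not give it, and it was inferred from the position code that the scanner output carries. By that code, row 1 held TEB samples 1 and 2, duct sample 1 and stroma sample 1, and row 2 held the others. Within row 1, miR-669f was higher in TEBs than in ducts and in stroma by 4.17 on the log2 scale, with both of the latter at the floor. Within row 2 the TEB sample was higher than the duct sample by 0.72 and higher than the 2 stroma samples by 2.14. The direction was the same in both rows, as it had to be, because every TEB sample lay above all duct and stroma samples. This agreement therefore says nothing about a batch. With 1 or 2 samples a tissue no test was made within a row. The summed signal of the 6 epithelial markers moved with the difference from stroma, at 1948 to 2057 scaled units in TEBs, 2077 to 2316 in ducts and 0 to 5.52 in stroma. Ducts carried as much of it as TEBs. Other marker lists also moved between the tissues. Endothelial markers, of which 1 of 2 was detected on every array of each tissue, summed to 1315 to 1650 scaled units in TEBs, 1927 to 2061 in ducts and 2765 to 3863 in stroma. Red cell markers summed to 1370 to 1902 units in TEBs, 2591 to 3276 in ducts and 1988 to 3577 in stroma, with 1 of 2 detected on every TEB array and both on every array of the other tissues. These lists were thus lower in all TEB samples than in any other sample. Leukocyte markers, of which 2 of 4 were detected on every array of each tissue, summed to 296 to 450 units in TEBs, 361 to 384 in ducts and no less than 563 in any stroma sample. Fibroblast and smooth muscle markers summed to 3160 to 3779 units in TEBs, 3427 to 3512 in ducts and 2467 to 2964 in stroma. Of 4 skeletal muscle markers, 0 were detected on every TEB array, and their summed signal was 17.1 to 89.5 units in TEBs, 56.1 to 179 in ducts and 31.2 to 60.2 in stroma. The part of these cell types in the miR-669f result was not tested.

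Mir669f is the third miRNA gene in order along Sfmbt2. Mir466m and Mir466f-1 lie before it, and Mir669e, Mir669b and Mir669d follow. Among the members from these neighbouring hairpins, miR-466f-3p, miR-466f-5p, miR-669e, miR-669b and miR-669d were not detected in any tissue and were negative on all 8 arrays. The position of a detected member beside undetected ones is a description of probe signals, which do not compare levels between hairpins. Its mature sequence was not in the tables used.

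**Figure D4:**
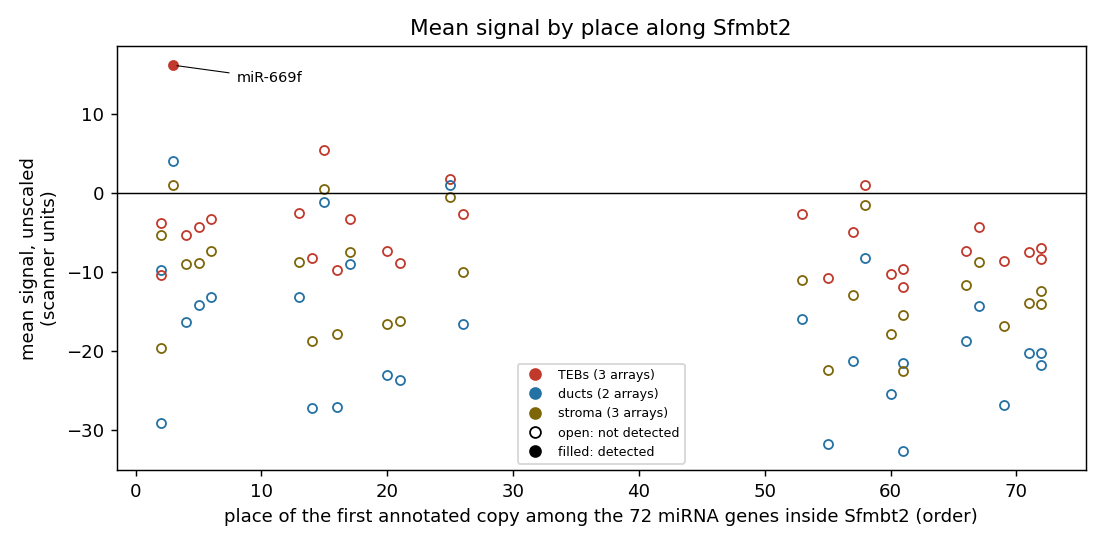
Mean total signal before scaling (y axis, scanner units) of members in TEBs, ducts and stroma, by the place of their first annotated copy in the order of the 72 miRNA genes inside Sfmbt2 (x axis). miR-669f at place 3 holds the only filled, detected point, and its neighbours on both sides lie below 0.

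A further 5 members were above 0 on at least 1 array without being detected, namely miR-466i, miR-467b, miR-467f, miR-669a and miR-669c. They were singled out after their values were seen. miR-466i was negative on 7 arrays, miR-669c on 5, miR-467b on 4, miR-669a on 2 and miR-467f on none. The highest ratio of signal to error among the members detected on no array was 2.03. Over all mouse miRNAs, on any array that did not detect them, the ratio reached 5.07. That wider set includes miRNAs detected on other arrays.

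miR-467f, whose locus lies outside Sfmbt2 and whose CA-rich sequence is given above, had signals before scaling of 2.61, 4.49 and 2.84 units in TEBs. Its signals were 7.42 and 8.91 units in ducts and 8.01, 9.57 and 9.62 in stroma. All 3 TEB samples lay below the 5 others, a direction opposite to that of miR-669f. The scaled TEB mean was 3.28 ± 0.854 units (SD, n = 3), that of ducts 6.35 ± 1.12 (SD, n = 2) and that of stroma 10.9 ± 2.50 (SD, n = 3). These signals were 0.566 to 2.03 times their errors, and the miRNA was detected on no array. With no detection filter, limma called the miR-467f signal lower in TEBs than in stroma (adjusted p = 0.0114, n = 3 and 3). It was detected in neither tissue, so no fold is given and the call concerns signals at background.

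miR-669a, which has 12 copies inside the host gene, gave scaled signals of 3.97, 6.94 and 5.22 units in TEBs. In ducts they were -6.16 and 4.71, and in stroma 0.292, -1.61 and 3.41. The 3 TEB samples lay above the 3 stroma samples and did not separate from the ducts, and miR-669a was detected on no array.

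The undetected members were then fitted together with all 611 mouse miRNAs, to see whether low signals differed between tissues when no filter was used. With the floor at 1 unit, 0 of the 34 undetected members were called by limma between TEBs and ducts and 0 between ducts and stroma, where 2.95% and 4.26% of all 611 were called. Between TEBs and stroma 1 was called, miR-467f, and 17.5% of all 611. The 1 call was 2.94% of the undetected members, against 5.08% of the 374 other undetected miRNAs (19 of 374). Of those 19, 2 were higher in TEBs and 17, like miR-467f, were higher in stroma. The floor sets nearly all of these signals to one value, so differences among them do not enter this fit.

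Treatments that keep more of the differences among low signals gave more calls, but neither keeps all of them. In the authors' table, 8, 15 and 19 members were tied at the array's lowest value on the 3 TEB arrays. On the duct arrays 32 and 28 were tied, and on the stroma arrays 29, 30 and 19. After 16 was added, the floor at 1 unit still applied to the lowest signals. In the authors' own normalised table, 6 undetected members (17.6%) were called in TEBs against stroma, 5 higher in TEBs and 1 lower. Of the other undetected miRNAs 70 (18.7%) were called, 22 higher in TEBs and 48 lower. With 16 units added to every scaled signal, 10 members (29.4%) were called, 9 higher in TEBs and 1 lower. Of the others 88 (23.5%) were called, 80 higher in TEBs and 8 lower. Over all 611 miRNAs these treatments called 31.8% and 31.3%. Between TEBs and ducts the calls were 1 (2.94%) in the authors' table and 3 (8.82%) with 16 added, against 4.01% and 3.74% of the others and 6.22% and 3.44% of all 611. Between ducts and stroma no undetected member was called by either, where 1.34% and 0.267% of the others and 6.06% and 2.95% of all 611 were.

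The shares of members called were below those of the other undetected miRNAs in TEBs against stroma at the floor and in the authors' table. With 16 added they were above them, in TEBs against stroma and in TEBs against ducts, and these differences in share were not tested. With 16 added, the median log2 difference of undetected members was 1.96 between TEBs and stroma and 1.87 between TEBs and ducts, and that of the other undetected miRNAs was 1.51 and 1.36. With 16 added, the shift was therefore shared by miRNAs that were detected nowhere. It was not seen in the other treatments. In the authors' table the medians between TEBs and stroma were 0.054 for members and -0.091 for the others. Between TEBs and ducts they were 0.035 and -0.099. At the floor these medians were all 0. The array medians of undetected signals given above were higher in all 3 TEB samples than in both duct samples and in 2 of 3 stroma samples, and their part in the members' calls was not tested.

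**Figure D5:**
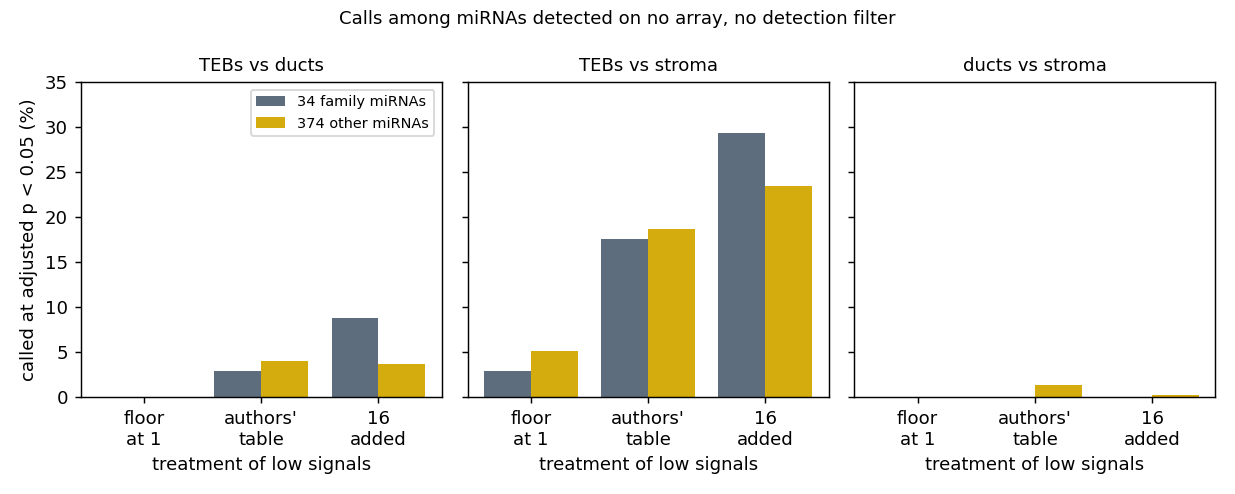
Share of undetected miRNAs called at the adjusted p threshold of limma (y axis, %) in each comparison of tissues, for 34 family members and 374 other mouse miRNAs, under 3 treatments of low signals. In TEBs against stroma the members stand at 2.94%, 17.6% and 29.4% beside 5.08%, 18.7% and 23.5% of the others.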

How the data were processed

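miRNAs were measured on a single-colour Agilent mouse miRNA array in TEBs, mature ducts and stroma. The authors deposited the total signal intensity of each miRNA with its error, a detection flag (0 or 1) coded per the file headers, and a series table of log2 values. The signals were made with Agilent Feature Extraction 9.5.3 per the submitters' processing notes, and no scaling between arrays had been applied to them. How the authors normalised the log2 table is not given in the sources used here. It had the same upper quartile on all arrays, and low signals were tied at one value per array.

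Control features and 39 viral miRNAs were left out. Each array was scaled by the 75th percentile over the 108 miRNAs detected on all 8 arrays (factors 0.750 to 1.36), a floor of 1 unit was applied, and the 167 miRNAs that every array of some tissue detected were fitted on the log2 scale over all 3 tissues with limma 3.58.1 in R 4.3.3 (lmFit, eBayes, Benjamini-Hochberg, threshold 0.05). The 75th percentile over all mouse miRNAs, which lies at the edge of detection, was an alternative. The procedure was tested on simulated data. No depth exists for arrays, and their number limits the precision. Members detected on all arrays of some tissue were named with their value on each array. The members, lists and tests were chosen with earlier results of these data known.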

Additional observations from a re-analysis of the deposited data

How the results depend on the processing

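Of the 23 alternatives run for miR-669f in TEBs against stroma, 14 left it called higher in TEBs, 8 left it higher but not called, and 1 turned its sign. The number of members called there fell from 1 to 0 with normexp background correction (offset 50, log2 difference -0.13, adjusted p = 0.248 by limma). It also fell to 0 with the replicate block (adjusted p = 0.0591 by limma) and with the methods' t-test after Benjamini-Hochberg adjustment (0.0626). With only miRNAs detected on all 8 arrays no member was tested, so a count of 0 was fixed in advance. The count ranged from 0 to 1 when single samples were left out. Without a detection filter it rose to 7 in the authors' table and to 11 with 16 added, both settings chosen after seeing the data, and at the floor miR-669f was replaced by miR-467f (miR-669f adjusted p = 0.145 by limma).

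Between TEBs and ducts the count of 0 rose to 1 in the authors' table, where miR-669f was called (log2 difference 1.34, adjusted p = 0.0393 by limma), to 1 in that table without a filter and to 3 with 16 added and no filter. It ranged from 0 to 0 with single samples left out, over which the log2 difference ran from 0.90 to 3.93. Between ducts and stroma normexp raised the count from 0 to 1, with miR-669f at -0.36 (adjusted p = 0.0219 by limma). That difference also changed sign without the second duct sample (-0.95) or the first stroma sample (-0.012), and with single samples left out it ran from -0.95 to 2.04. Leaving out single samples moved the TEB against stroma difference between 2.53 and 4.04. The number of members detected on every array of a tissue went from 1 to 0 when all 8 arrays or a signal above 3 times its error were required, and was 1 to 1 with single samples left out. The causes were not tested. Deviations from the tissue means were not more alike between samples of the same number. Their mean correlation was -0.10 over 7 same-number pairs (-0.51 to 0.36) and 0.05 over 14 others. With 2 or 3 samples a tissue, this cannot tell whether the numbers pair samples. The replicate block left the other 2 counts at 0. The other 34 members were not detected on any array, so calls among them compare signals at background and give no level.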
